A study of Mus musculus with 28 samples.

Results

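The genes described here are 36 genes of macrophages, antigen presentation and complement, chosen by name: macrophage surface and lysosomal proteins, Fc receptors with their adaptors, the C1q complement chains, MHC class II and class I components, and general leukocyte markers. Of the 36, 32 had an annotated probe on the array and 23 were bright enough to be measured, among 8389 genes measured in all. Measured means that the deposited intensity exceeded 24 on at least 7 of the 28 arrays, and each gene is represented by its brightest probe. The genes Cd68, Csf1r, C3 and Mpeg1 had no annotated probe. Itgam, Itgb2, Ctss, H2-Aa, H2-K1, H2-D1, Cd53, Cybb and Ncf1 had dim probes alone and were not tested.

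The study hybridised calf RNA of female FVB mice aged 4 months (the gastrocnemius, plantaris and soleus muscles taken as 1 tissue) to Illumina bead arrays, 1 array per sample. Muscle came from mice lacking LKB1 in skeletal muscle only, at rest (7 samples) or directly after contraction (7 samples), and from wild-type mice at rest (7 samples) or directly after contraction (7 samples). LKB1, encoded by Stk11, is a kinase that activates AMPK and related kinases, and contraction had been driven in place for 15 min through the sciatic nerve. The sources used here do not give the promoter that drives the deletion or say whether samples of the same number share an animal, so that p-values cover the spread among the samples at hand, which may be in part technical. The deletion is described as specific to skeletal muscle, whereas most genes in the list are known from leukocytes, which the tissue RNA also contains.

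Macrophages live between muscle fibres, engulf debris and dying cells, and digest them in lysosomes. They take up antibody-coated particles through Fc receptors, whose signalling adaptors pass the signal on inside the cell, and they are the main source of C1q, the recognition protein that starts the classical complement pathway. MHC class II molecules, loaded with peptide in compartments where the invariant chain Cd74 first protects them, are carried by macrophages, dendritic cells and B cells, while MHC class I with its light chain B2m is carried by nearly every cell.

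The labels fitted the data where they could be checked. Of 12 general skeletal muscle genes 11 were measured, with a mean log2 intensity from 13.90 to 14.51 in knockout samples and from 14.04 to 14.46 in wild-type samples. Stk11 had a log2 intensity of 8.96 ± 0.32 in knockout against 10.32 ± 0.20 in wild type at rest (SD, n = 7 each), and no knockout sample reached a wild-type sample in either state. Each array had between 41.2% and 41.5% of its probes over the limit. The deposited columns have nearly equal quantiles, which fixes this share, so it checks neither the labels nor the arrays. Precision is limited by the number of arrays. The label "macrophage" rests on part of the usual markers: Adgre1, which encodes F4/80, was over the limit on 3 of 28 arrays and Ptprc, the pan-leukocyte antigen CD45, on 1, whereas Mrc1, Lgals3, Lyz2 and the 3 C1q genes were measured. Fewer cells of a type and less RNA per cell cannot be told apart in RNA of whole muscle.

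Some samples stood apart. The mean log2 intensity of 10 measured lymphocyte markers was at least 7.23 in 9 samples and at most 6.49 in the other 19. These 9 were resting knockout samples 1, 2 and 4, contracted knockout samples 1, 2 and 5, resting wild-type samples 4 and 5, and contracted wild-type sample 7. The summed intensity of the 10 markers ranged from 81.4 to 6206 in resting knockout and from 94.7 to 4857 in resting wild type, and from 89.9 to 4056 in contracted knockout and from 80.4 to 5951 in contracted wild type. Of the 18 listed markers 6 had dim probes alone, among them Ms4a1 and Cd4 on 0 arrays over the limit. The B cell genes Cd79a and Cd79b and the T cell genes Cd3e, Cd3d, Cd3g, Cd8b1 and Cd6 were over the limit on all 9 of these arrays and on 0 of the other 19. The remaining measured markers split the samples less well. Cd2 was over the limit on all 9 and on 3 of the other 19, and Il7r on all 9 and on 16 of the 19. Cd247 went the other way, over the limit on 4 of the 9 and on 13 of the 19. The 9 samples fall in both genotypes, and values without them are given for each gene called between the genotypes and for the antigen presentation and leukocyte genes.

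The promoters of some of the genes called higher in knockout muscle in at least 1 of the comparisons are shown for reference. Lyz1, Lyz2, Fcgr3 and Fcgr2b were called higher on average too and are not shown. The Lyz2 window held no match to the motifs searched below. The call of H2-Eb1 is given below as a description and not as a test. Each run is the 150 bases before the annotated start in RefSeq (mouse build GRCm38.p6), written 5′ to 3′ on the gene's own strand, with matches to a searched motif in capitals. Lgals3 lies at chr14:47373710-47373859 on the plus strand, Lgmn has 2 listed starts at chr12:102439729-102439878 and chr12:102439093-102439242 on the minus strand, Mrc1 lies at chr2:14229264-14229413 on the plus strand, C1qb at chr4:136886201-136886350 on the minus strand, and H2-Eb1 at chr17:34305717-34305866 on the plus strand.
Lgals3: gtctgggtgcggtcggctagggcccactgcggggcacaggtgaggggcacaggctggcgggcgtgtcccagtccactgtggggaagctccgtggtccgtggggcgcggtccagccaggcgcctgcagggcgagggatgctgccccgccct
Lgmn, first start: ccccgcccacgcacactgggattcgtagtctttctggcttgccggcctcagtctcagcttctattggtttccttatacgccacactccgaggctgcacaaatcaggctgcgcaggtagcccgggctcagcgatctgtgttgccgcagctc
Lgmn, second start: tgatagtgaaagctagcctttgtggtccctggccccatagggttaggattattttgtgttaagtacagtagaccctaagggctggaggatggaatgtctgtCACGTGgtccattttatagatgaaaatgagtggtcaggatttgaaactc
Mrc1: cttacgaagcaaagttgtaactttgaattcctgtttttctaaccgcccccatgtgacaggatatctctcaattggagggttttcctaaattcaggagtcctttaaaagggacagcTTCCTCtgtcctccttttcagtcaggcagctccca
C1qb: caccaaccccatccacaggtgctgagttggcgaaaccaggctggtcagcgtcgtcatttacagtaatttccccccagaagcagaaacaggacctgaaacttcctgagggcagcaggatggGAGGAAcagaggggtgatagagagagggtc
H2-Eb1: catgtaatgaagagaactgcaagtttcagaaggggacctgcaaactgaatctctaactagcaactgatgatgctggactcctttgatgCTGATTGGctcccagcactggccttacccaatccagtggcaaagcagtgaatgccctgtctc

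3 motifs were searched on both strands of this window: CTGATTGG, the Y box bound by NF-Y in MHC class II promoters, CACGTG, the E box read by the lysosomal gene regulator TFEB and other factors, and GAGGAA, a core that the myeloid factor PU.1 recognises. Their letters do not overlap in the matches shown. The Y box was found 62 bases before the start of H2-Eb1, the E box 49 bases before the second start of Lgmn, and the PU.1 core 35 bases before the start of Mrc1 on the minus strand and 30 bases before that of C1qb. The Lgals3 window held none of the 3. A promoter was listed for 16 of the 23 measured genes. The Y box occurred in 1 of these 16 (3.16% of all 32851 promoters listed), the E box in 1 (4.30% of all) and the PU.1 core in 6 (14.5% of all): Aif1, C1qb, Fcgr3, Laptm5, Mrc1 and Pf4. The counts are of genes with a match at any of their listed starts, whereas the shares are over single promoters, so the units differ. These are matches of letters and not measured binding.

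Loss of LKB1 was compared with wild type in each state first. At rest, Lgals3 and Lgmn rose in knockout muscle and no measured gene of the list fell. After contraction Lgals3, Lgmn and Mrc1 rose and again none fell. A gene was called at a Benjamini-Hochberg adjusted p under 0.05 over all genes in limma. At rest 2 of 23 were called, where 3.75% of all genes were called in either direction. Both were called higher, where 1.82% of all genes were called higher, and 0 were called lower, where 1.93% of all genes were. After contraction 3 of 23 were called higher against 4.54% of all genes, and 0 lower against 4.33%. The median log2 difference of the 23 genes was 0.44 at rest and 0.57 after contraction, beside -0.01 over all genes in both states, and 19 of 23 differences lay above 0 in each state. Of the 23, 3 reached the required 7 arrays through 1 genotype: H2-Eb1 and Tyrobp through knockout and Fcer1g through wild type. Since a gene that is bright in 1 genotype alone is kept for being bright there, the differences of these 3 are given as descriptions. Over the other 20 genes the median difference was 0.48 at rest and 0.61 after contraction. None of the 23 separated the genotypes without overlap in either state, where 0.954% of all genes at rest and 1.16% after contraction did.

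**Figure D1:**
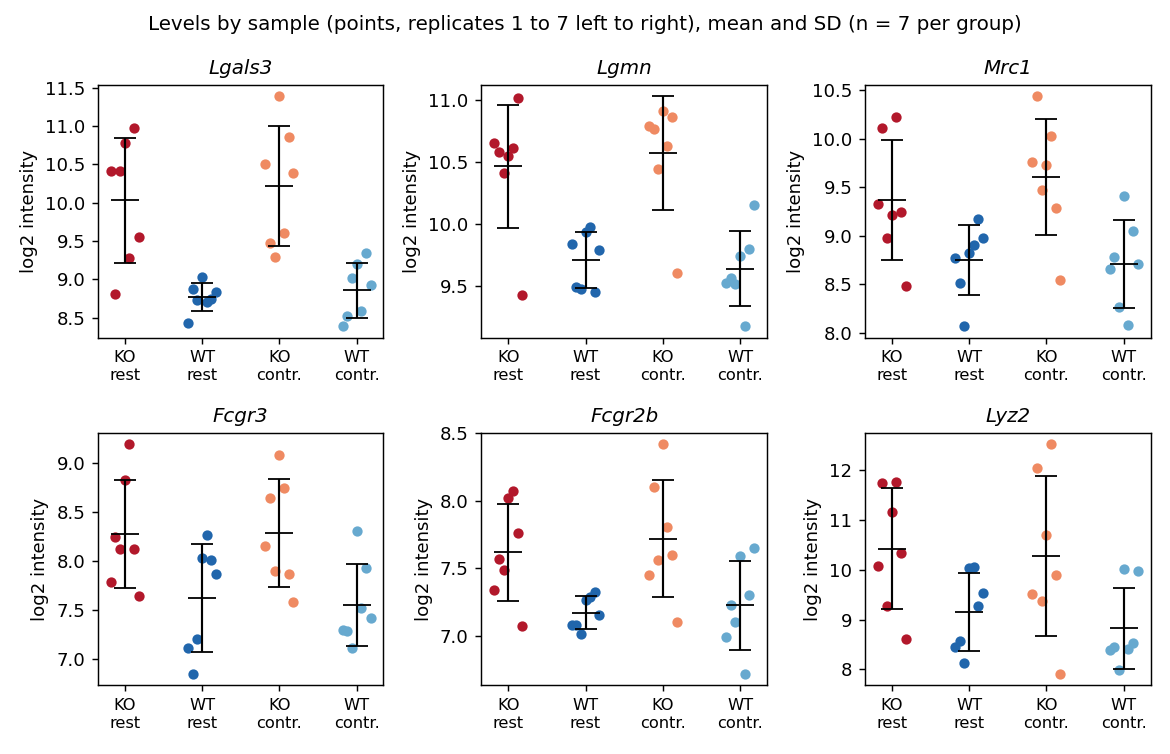
Log2 intensity of 6 genes by sample in the 4 groups. Points are samples in the order of their numbers 1 to 7, and bars give the mean and SD (n = 7). For Lgals3 and Lgmn 6 of 7 knockout samples lie above all wild-type samples in both states, and the low Lgmn point at the right of each knockout group is sample 7.

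Lgals3 encodes galectin-3, a sugar-binding protein that macrophages secrete and that is also abundant in them when they digest lipid and debris. In resting muscle its log2 intensities were 10.41, 8.80, 10.41, 10.77, 9.27, 10.97 and 9.55 in knockout samples 1 to 7, against 8.43, 8.87, 8.73, 9.02, 8.71, 8.74 and 8.83 in wild-type samples 1 to 7. Knockout sample 2 alone fell inside the wild-type range. Lgals3 rose by 1.26 at rest (SE 0.30, limma adjusted p = 0.0189), with means of 10.03 ± 0.82 in knockout and 8.76 ± 0.18 in wild type (SD, n = 7 each).

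After contraction Lgals3 stood at 10.50, 9.47, 9.29, 11.39, 9.60, 10.86 and 10.39 in knockout samples 1 to 7, against 8.39, 8.52, 9.02, 9.20, 8.59, 9.34 and 8.93 in wild-type samples. Knockout sample 3 was the one knockout sample below the highest wild-type sample. Lgals3 rose by 1.36 in this state (SE 0.30, limma adjusted p = 0.00639). Over single samples, an exact two-sided permutation test gave p = 0.00233 at rest and p = 0.00117 after contraction, where the smallest p it allows is 0.000583. The knockout samples were also more spread than the wild-type samples, with SDs of 0.82 and 0.78 in knockout and 0.18 and 0.36 in wild type. With the 9 lymphocyte-high samples left out the difference was 1.33 at rest, where the call was lost (adjusted p = 0.0951 with 4 knockout and 5 wild-type samples), and 1.64 after contraction (adjusted p = 0.00789). At rest the call was also lost without knockout sample 1 or without knockout sample 6, with adjusted p up to 0.0528.

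Lgmn encodes legumain, a lysosomal protease that trims antigens and activates cathepsins. Its log2 intensities in resting muscle were 10.65, 10.58, 10.41, 10.55, 10.61, 11.02 and 9.43 in knockout samples 1 to 7, against 9.84, 9.49, 9.48, 9.93, 9.98, 9.46 and 9.79 in wild-type samples. Knockout sample 7 was below every wild-type sample and the other 6 were above every one. Lgmn rose by 0.76 at rest (SE 0.20, limma adjusted p = 0.0301; exact two-sided permutation p = 0.00524).

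After contraction Lgmn was at 10.79, 10.77, 10.44, 10.91, 10.63, 10.86 and 9.60 in knockout samples, against 9.52, 9.57, 9.52, 9.75, 9.18, 9.80 and 10.15 in wild-type samples. Sample 7 was again the low knockout sample, and wild-type sample 7, one of the samples high in lymphocyte markers, was the highest of its group. Lgmn rose by 0.93 (SE 0.20, limma adjusted p = 0.00456; exact two-sided permutation p = 0.00233). With these 9 samples left out the difference was 0.76 at rest (adjusted p = 0.199) and 0.90 after contraction (adjusted p = 0.0507), so the size held while both calls were lost. At rest the call was lost in 8 of the 28 fits that left out 1 sample, with adjusted p up to 0.0786.

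Mrc1, the mannose receptor CD206 of tissue-resident macrophages, had log2 intensities after contraction of 9.75, 10.43, 9.46, 9.72, 10.03, 9.29 and 8.54 in knockout samples 1 to 7, against 8.65, 8.78, 8.26, 9.41, 8.07, 9.05 and 8.71 in wild-type samples. Knockout samples 1 to 5 were above all wild-type samples, and samples 6 and 7 were inside their range. Mrc1 rose by 0.90 (SE 0.26, limma adjusted p = 0.0301). At rest its difference was 0.62 (SE 0.26, adjusted p = 0.165), and the difference between the genotype effects in the 2 states was 0.28 (SE 0.37, adjusted p = 1.0). The call after contraction was lost in 7 of 28 fits that left out 1 sample, with adjusted p up to 0.0714, and with the 9 lymphocyte-high samples left out, where the difference was 0.55 (adjusted p = 0.358).

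**Figure D2:**
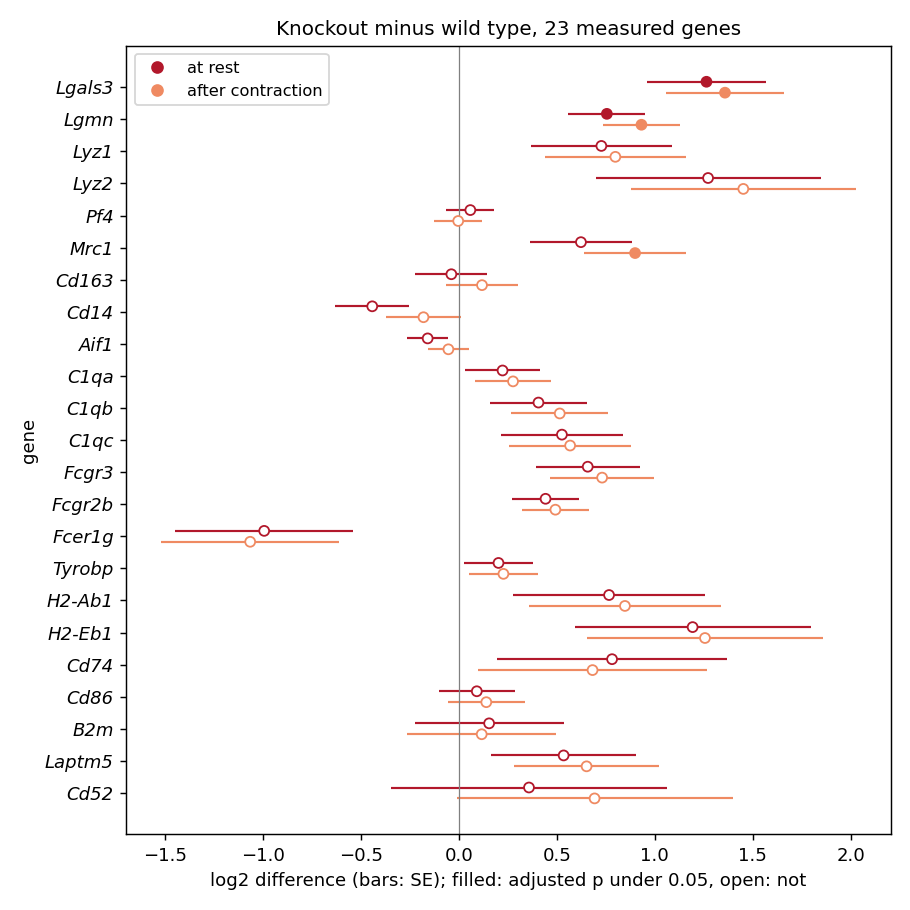
Log2 difference of knockout minus wild type for the 23 measured genes, at rest and after contraction, with limma standard errors and grouped by role. Filled points passed an adjusted p of 0.05: Lgals3 and Lgmn in both states and Mrc1 after contraction, while Fcer1g and Cd14 lie left of 0.

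With both states averaged, 9 of the 23 genes were higher in knockout and 1, Fcer1g, was lower, beside 12.9% and 13.9% of all genes. Without the 3 genes kept through 1 genotype the counts were 8 higher and 0 lower of 20. This average takes each sample as separate. Same-numbered resting and contracted knockout samples deviated together across all genes (correlations from 0.37 to 0.85 in 7 of 7 pairs), so the average was also fitted with the number within genotype as a random block. That fit called 6 genes higher and 1 lower, beside 7.72% and 8.05% of all genes: Lgals3 and Lgmn (adjusted p = 0.000676 and 0.000677), Mrc1 (0.011), Fcgr3 (0.0208), Fcgr2b (0.022), Lyz2 (0.0288) and, lower, Fcer1g (0.0307). Fcer1g apart, these are 6 higher and 0 lower of the 20. The calls of Lyz1, H2-Eb1 and C1qb were lost, at adjusted p of 0.0608, 0.0676 and 0.0919. With the 9 lymphocyte-high samples left out 7 genes were called on average, where 13.2% of all genes were: Lgals3, Lgmn, Fcgr2b, H2-Ab1, H2-Eb1, Laptm5 and Cd52. H2-Eb1 apart, these are 6 of the 20.

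The Fc receptors and their adaptors did not move alike. Fcgr3, an activating receptor for IgG, had log2 intensities of 7.64 to 9.19 in resting knockout (median 8.12) against 6.84 to 8.27 in resting wild type (median 7.87), and of 7.58 to 9.08 in contracted knockout (median 8.15) against 7.10 to 8.31 in contracted wild type (median 7.42). The ranges overlapped in both states, and Fcgr3 rose by 0.70 on average (SE 0.19, limma adjusted p = 0.00789). Without the 9 lymphocyte-high samples it was again at 0.70, with the call lost (adjusted p = 0.0528). Fcgr2b, the inhibitory IgG receptor, rose by 0.47 on average (SE 0.12, adjusted p = 0.00598), and in resting muscle 6 of 7 knockout samples, from 7.34 to 8.07, lay above the highest wild-type sample at 7.33. Without the 9 samples it was at 0.49 (adjusted p = 0.0414). A dimmer probe of Fcgr2b was at -0.05. Tyrobp, the adaptor DAP12, was at 0.20 at rest and 0.23 after contraction and was over the limit on 10 of 14 knockout arrays and 5 of 14 wild-type arrays.

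Fcer1g, the gamma chain shared by Fc receptors, lay at separate levels and was at -1.03 on average (SE 0.32, limma adjusted p = 0.0191). In resting muscle it stood at 6.04, 6.12, 6.16, 6.15, 6.18, 8.21 and 6.19 in knockout samples 1 to 7, against 7.80, 7.53, 7.67, 8.41, 6.13, 6.24 and 8.23 in wild-type samples. After contraction the values were 6.23, 6.10, 6.23, 6.16, 6.11, 8.54 and 6.27 in knockout samples, against 7.40 to 8.76 in wild-type samples 1 to 4 and 7, and 6.23 and 6.19 in wild-type samples 5 and 6. Knockout sample 6 was high and wild-type samples 5 and 6 were low in both states, and no sample had a value between 6.27 and 7.40. The low values lay at or below an intensity of 0.734, so they are background, and the probe was over the limit on 2 of 14 knockout arrays and 10 of 14 wild-type arrays. The gene was therefore kept through the wild-type arrays, where it is high, and most knockout values give an upper bound on its level, so the average difference is no measured size. Without the 9 lymphocyte-high samples it was at -0.70 (adjusted p = 0.262). Permuting single samples between genotypes exactly, two-sided, gave p = 0.0594 at rest and p = 0.0693 after contraction. Like the difference, these p-values and the limma ones are descriptions and no test of the genotypes, since the filter kept the gene for its wild-type arrays.

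**Figure D3:**
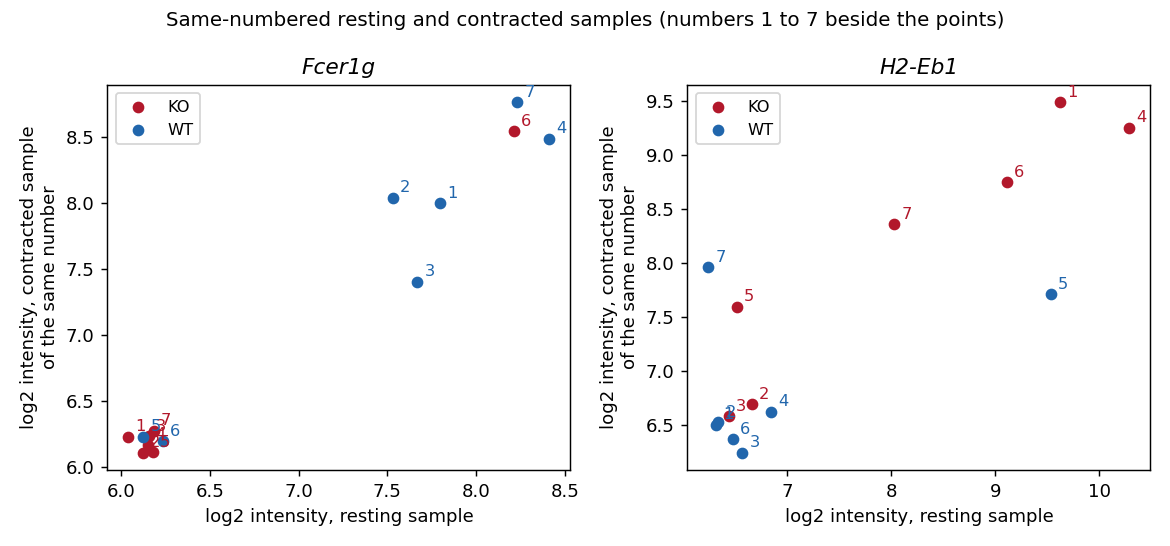
Log2 intensity of Fcer1g and H2-Eb1 in resting (horizontal axis) and contracted (vertical axis) samples that carry the same number, which stands beside each point. Fcer1g forms a low level near 6.2 and a high level above 7.4 with the same numbers in both states, and H2-Eb1 is high in knockout numbers 1, 4, 6 and 7.

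Lyz2, the lysozyme of macrophages, ranged from 8.61 to 11.76 in resting knockout (median 10.32) against 8.13 to 10.05 in resting wild type (median 9.27), and from 7.91 to 12.51 in contracted knockout (median 9.90) against 7.99 to 10.01 in contracted wild type (median 8.45). The lowest sample of the contracted groups was a knockout sample, number 7. Lyz2 rose by 1.36 on average (SE 0.41, limma adjusted p = 0.0149), and was at 1.02 without the 9 lymphocyte-high samples, with the call lost (adjusted p = 0.0899). Its other kept probe, which is dimmer, was at 0.07. Lyz1, its near-identical neighbour, rose by 0.76 on average (SE 0.26, adjusted p = 0.028), and a second probe of Lyz1 was at 0.95. Without the 9 samples Lyz1 was at 0.70 (adjusted p = 0.066). Since the 2 genes are so alike, a probe may read both transcripts and the split between them is uncertain.

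The C1q chains are 3 genes whose products assemble into 1 protein. C1qb was at 0.41 at rest and 0.52 after contraction, C1qc at 0.53 and 0.57, and C1qa at 0.22 and 0.28. Of the 3, C1qb passed on average (difference 0.46, SE 0.17, adjusted p = 0.0498), and that call ended in 17 of the 28 fits that left out 1 sample and without the 9 lymphocyte-high samples (difference 0.38, adjusted p = 0.237). C1qb ranged from 8.53 to 9.93 in resting knockout against 8.18 to 9.28 in resting wild type, and from 8.58 to 9.99 in contracted knockout against 8.17 to 9.24 in contracted wild type. The highest values of C1qb and C1qc in knockout belonged to sample 5 in both states.

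How these genes varied from sample to sample was compared through deviations from the group means, in resting and contracted samples apart, for 5 pairs of genes. Of the pairs planned, those with a dim gene were not computed, and Tyrobp with Fcer1g is not given because Fcer1g falls into separate levels. C1qb and C1qc rose and fell together, with r = 0.95 and rho = 0.90 over 14 resting samples (permutation p = 1e-05 for r, the smallest the 100000 resamples can give, and 0.0002 for rho; adjusted p = 5e-05 and 0.0005) and r = 0.93 and rho = 0.91 over 14 contracted samples (permutation p = 1e-05 and 6e-05; adjusted p = 2.5e-05 and 0.00015). C1qa and C1qb had r = 0.79 and rho = 0.77 at rest (permutation p = 0.00044 and 0.00133; adjusted p = 0.000733 and 0.00222) and r = 0.75 and rho = 0.71 after contraction (permutation p = 0.00236 and 0.00576; adjusted p = 0.00393 and 0.0096). Without the 2 samples farthest from the median, r was 0.92 and 0.91 for C1qb with C1qc and 0.75 and 0.71 for C1qa with C1qb.

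H2-Ab1 and Cd74, a class II chain and its chaperone, were a pair added after the data had been seen and gave r = 0.93 and rho = 0.96 at rest (permutation p = 6e-05 and 1e-05; adjusted p = 0.00015 and 5e-05) and r = 0.99 and rho = 0.96 after contraction (permutation p = 1e-05 for both; adjusted p = 2.5e-05 and 5e-05), and r = 0.88 and 0.95 without the 2 farthest samples. Mrc1 with Cd163, both receptors of resident macrophages, had r = 0.31 and rho = 0.32 at rest (permutation p = 0.213 and 0.252; adjusted p = 0.266 and 0.315) and r = 0.05 and rho = 0.23 after contraction (permutation p = 0.88 and 0.454; adjusted p = 0.88 and 0.567). Without the 2 farthest samples r was 0.40 at rest and 0.63 after contraction. Lyz2 with Lgals3, the members with the largest differences on average, had r = -0.20 and rho = -0.20 at rest (permutation p = 0.583 and 0.566; adjusted p = 0.583 and 0.566) and r = -0.17 and rho = -0.0022 after contraction (permutation p = 0.645 and 1.0; adjusted p = 0.806 and 1.0). Resting knockout sample 2, for example, had the lowest Lgals3 of its group, 8.80, and a Lyz2 of 11.73, close to the highest.

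The class II genes had large differences and large spread. H2-Ab1 was at 0.77 at rest and 0.85 after contraction (SE 0.49), Cd74 at 0.78 and 0.68 (SE 0.59), and H2-Eb1 at 1.19 and 1.26 (SE 0.60), none of them called in a single state. On average H2-Ab1 was at 0.81 (adjusted p = 0.0814). It has 3 other kept probes, which differed by 1.22, 0.85 and 0.63 on average, with adjusted p over all kept probes of 0.0175, 0.0406 and 0.169. H2-Ab1 reached 12.82 in contracted knockout sample 5 and 12.72 in contracted wild-type sample 7, both high in lymphocyte markers. Without the 9 such samples H2-Ab1 was at 0.87 on average (SE 0.22, adjusted p = 0.0131), with an SE smaller than in all samples.

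H2-Eb1, the beta chain of the class II molecule I-E, had log2 intensities of 9.62, 6.66, 6.44, 10.29, 6.52, 9.11 and 8.03 in resting knockout samples 1 to 7, against 6.32, 6.34, 6.57, 6.84, 9.53, 6.48 and 6.24 in resting wild-type samples. After contraction it was at 9.49, 6.69, 6.58, 9.26, 7.59, 8.75 and 8.36 in knockout samples, against 6.50, 6.53, 6.24, 6.62, 7.71, 6.37 and 7.96 in wild-type samples. Knockout samples 1, 4, 6 and 7 were high in both states, and wild-type sample 5 was raised in both, at 9.53 and 7.71. Knockout sample 5 and wild-type sample 7 were raised after contraction, at 7.59 and 7.96. The probe was over the limit on 11 of 14 knockout arrays and 4 of 14 wild-type arrays. H2-Eb1 was therefore kept through the knockout arrays, where it is high, and most wild-type values are at background. As a description and not as a test of the genotypes, it was at 1.23 on average (SE 0.43, limma adjusted p = 0.0341). With the lymphocyte-high samples left out H2-Eb1 was at 1.36 (adjusted p = 0.014), again as a description. Without those samples Cd74 was at 0.90 at rest and 0.52 after contraction (adjusted p = 0.318 and 0.512). Cd86, a costimulatory ligand for T cells, was at 0.09 and 0.14, and at 0.08 and 0.19 without them.

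B2m, the light chain of class I molecules, was at 0.16 at rest and 0.12 after contraction (SE 0.38), with log2 intensities of 10.54 to 13.13 in knockout and 10.63 to 12.33 in wild type. Without the 9 lymphocyte-high samples B2m was at 0.32 at rest and changed sign after contraction, at -0.39 (SE 0.28, adjusted p = 0.498). Laptm5, a lysosomal membrane protein of leukocytes, was at 0.54 and 0.65 (SE 0.37), and Cd52, a surface peptide of lymphocytes and monocytes, at 0.36 and 0.69 (SE 0.70). The calls of the last pair appeared when the 9 samples high in lymphocyte markers were left out: after contraction Laptm5 was then at 0.70 (SE 0.18, adjusted p = 0.0268) and Cd52 at 0.56 (SE 0.12, adjusted p = 0.0124). In that fit 3 of 23 genes, these and Lgals3, were called after contraction, where 4.24% of all genes were, and 0 at rest, where 0.405% were.

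**Figure D4:**
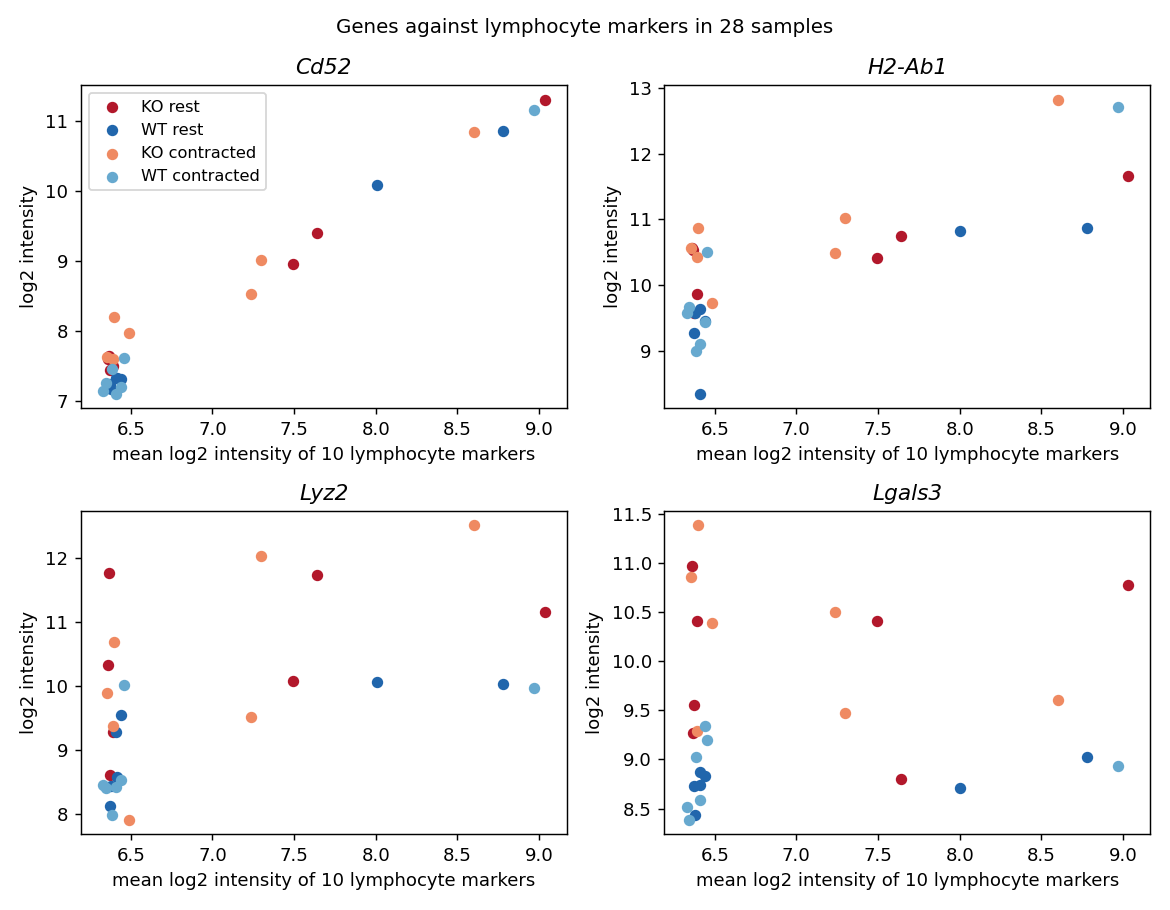
Log2 intensity of Cd52, H2-Ab1, Lyz2 and Lgals3 (vertical axes) against the mean log2 intensity of 10 measured lymphocyte markers (horizontal axes) in the 28 samples, coloured by group. The 9 samples at or above 7.23 on the horizontal axis are all above the other 19 for Cd52 and are mixed with them for Lgals3.

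In the 9 samples high in lymphocyte markers Cd52 ranged from 8.52 to 11.30, against 7.11 to 8.21 in the other 19, and Laptm5 from 11.07 to 12.73, against 9.75 to 11.07. The medians differed by 2.63 for Cd52, 1.47 for Lyz2, 1.44 for H2-Eb1, 1.28 for B2m, 1.27 for Lyz1, 1.24 for H2-Ab1 and 1.23 for Cd74. They differed by 0.83 for Lgmn, 0.81 for Laptm5, 0.36 for Mrc1 and 0.27 for Lgals3. For Fcer1g the median ran the other way, 1.27 lower in the 9 samples (difference -1.27). These medians pool the genotypes, so they carry the genotype difference as well. Fcer1g was at 6.04 to 6.23 in the 6 knockout samples of the 9, and at 8.41, 6.13 and 8.76 in the 3 wild-type samples. Lgmn was at 10.55 to 10.79 in these knockout samples, inside the 9.43 to 11.02 of the other knockout samples. In the 3 wild-type samples Lgmn was at 9.93 to 10.15, above the 9.18 to 9.84 of the other wild-type samples. Of the 9, 6 were knockout and 3 wild-type samples, and 0 of the 10 measured lymphocyte markers were called between genotypes in either state or on average, where 3.75%, 8.87% and 26.8% of all genes were called at rest, after contraction and on average.

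A few genes of resident macrophages showed no clear rise. Cd163, the haemoglobin scavenger receptor, was at -0.04 at rest and 0.12 after contraction (SE 0.18). Cd14, the co-receptor for bacterial lipopolysaccharide, was at -0.44 at rest (SE 0.19, limma adjusted p = 0.172; exact two-sided permutation p = 0.0402) and at -0.18 after contraction. Aif1, the calcium-binding protein IBA1, was at -0.16 and -0.05 (SE 0.11), and the platelet and macrophage chemokine Pf4 at 0.06 and -0.0029 (SE 0.12). The probes of Cd163, Aif1 and Pf4 are dim, so their differences are understated and a rise could be missed. Group medians of the deposited intensity were 30.3 to 46.7 for Cd163, 53.2 to 59.2 for Aif1 and 44.7 to 54.9 for Pf4. Aif1 also had the smallest spread of the list in both knockout groups, with SDs of 0.20 at rest and 0.16 after contraction. Its probe is dim, so this spread is understated as well. The 9 dim genes stayed near background: their highest deposited intensity on any array was 66.9, for Itgb2, and on the 7 resting wild-type arrays with matched detection p-values, Itgb2 was detected on 2, Cd53 on 1 and the other 7 on 0.

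Spread between samples was larger for these genes than for most. The median SD of the 23 genes was 0.62 in resting knockout and 0.48 in resting wild type, and 0.57 in contracted knockout and 0.45 in contracted wild type. Over all genes the median SD was 0.26, 0.23, 0.26 and 0.21 in the same order of groups. The largest SDs were 1.61 for H2-Eb1 in resting knockout, 1.57 for Cd52 in resting wild type, 1.60 for Lyz2 in contracted knockout and 1.47 for Cd74 in contracted wild type.

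Contraction itself was compared with rest within each genotype. In knockout muscle 0 of 23 genes passed, where 0.0119% of all genes did, and 1 had an unadjusted limma p under 0.05. In wild-type muscle 0 of 23 passed and 0 had an unadjusted p under 0.05, and 0% of all genes passed. The median difference was 0.04 in knockout and -0.02 in wild type, beside -0.01 and -0.00039 over all genes. Neither genotype had a gene of the list whose contracted and resting samples did not overlap, beside 0% of all genes in knockout and 0.0358% in wild type. The one gene with an unadjusted p under 0.05 was Cd14, at 0.43 in knockout (SE 0.19, p = 0.0318, adjusted p = 1.0; exact two-sided permutation p = 0.0338). Cd14 was higher in the contracted than in the same-numbered resting sample for 7 of 7 numbers in knockout, by 0.12 to 0.78, and for 5 of 7 in wild type, where the difference was 0.17.

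With the number as a fixed block in knockout, Cd14 had an SE of 0.13 and an adjusted p of 0.264, and 0 of the 23 genes were called while 0.679% of all genes were. The largest differences in wild type were -0.34 for Cd52 and -0.32 for Lyz2, with SEs of 0.70 and 0.57. The test of whether contraction acted differently in knockout and in wild type called 0 of 23 genes and 0% of all genes, and 0 of the 23 had an unadjusted limma p under 0.05. Its differences ranged from -0.10 for Cd74 to 0.33 for Cd52 (SE 0.83 and 1.00). Lgals3, Lgmn and Mrc1 were at 0.09, 0.18 and 0.28 there, with SEs of 0.43, 0.28 and 0.37.

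**Figure D5:**
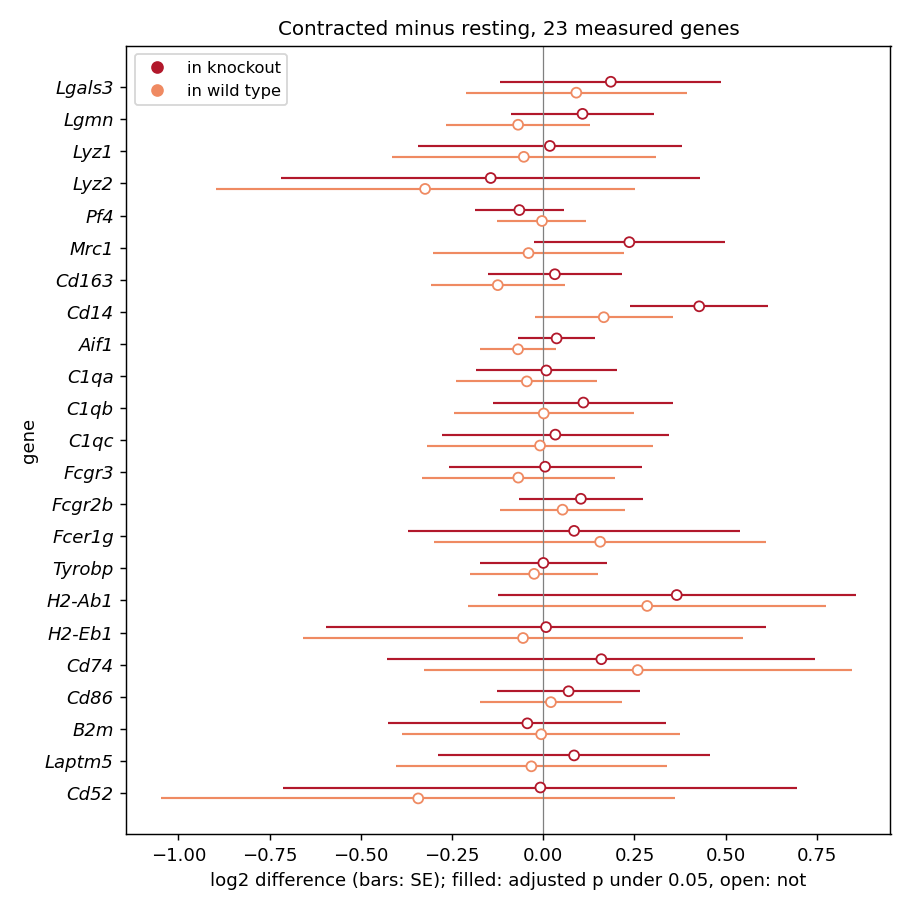
Log2 difference of contracted minus resting muscle for the 23 measured genes, in knockout and in wild type, with limma standard errors. All points are open, since none passed an adjusted p of 0.05, and Cd14 in knockout lies farthest right.

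Other genes of the same pathways, listed by name, were counted beside these. Of 40 further macrophage genes 24 were measured and 1, Trem2, rose in each state, with resting muscle at 0.47 (SE 0.12, limma adjusted p = 0.0219) and contracted muscle at 0.43 (SE 0.12, limma adjusted p = 0.0207). That is 1 of 24 called higher in each state, where 1.82% of all genes were at rest and 4.54% after contraction. Trem2, a lipid-sensing receptor of phagocytes, signals through Tyrobp. On average Tlr4, Vsig4, Cd84, Gpnmb and Cd33 also rose, by 0.30, 0.43, 0.46, 0.52 and 0.24, which makes 6 of 24 called higher and 0 lower on average, beside 12.9% and 13.9% of all genes. Of these, Cd33 was over the limit on 11 of 28 arrays, Cd84 on 17 and Trem2 on 19. Vsig4 was over it on 22, Tlr4 on 26 and Gpnmb on 28. The wild-type means of Trem2 were 6.58 at rest and 6.65 after contraction, against 7.05 and 7.08 in knockout. These wild-type means lie near the limit, since the lowest H2-Eb1 value over it was 6.66. Arrays over the limit were not split by genotype for Trem2, so it may be kept through knockout. Its calls are therefore given as descriptions and not as a test of the genotypes. Genes kept through 1 genotype were not set apart in this list, so its counts may include such genes. The median difference of the 24 was 0.22 in each state. With the random block Trem2, Tlr4 and Vsig4 remained called, at adjusted p of 0.00435, 0.0345 and 0.0331, which is 3 of 24 where 7.72% of all genes were called higher.

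Of 23 further complement genes 7 were measured and 0 were called, where 3.75% of all genes were called at rest, 8.87% after contraction and 26.8% on average, with median differences of 0.05 at rest and 0.16 after contraction. Of 17 further class II genes 12 were measured, and 1, Nfyb, a subunit of NF-Y, fell on average, by 0.42 (SE 0.10, adjusted p = 0.00406). Of 27 further class I genes 17 were measured. H2-T23, a non-classical class I gene, rose by 0.89 on average (adjusted p = 0.0378) and Tap2, a peptide transporter, fell by 0.44 (adjusted p = 0.0173), and both calls were lost with the random block (adjusted p = 0.063 and 0.0639). Of 4 further subunits or partners of the phagocyte oxidase 3 were measured and 0 were called. Among 12 neutrophil genes 6 were measured and S100a8 rose by 0.96 on average (adjusted p = 0.0231), and the summed intensity of the 6 ranged from 123 to 657 in resting knockout against 166 to 304 in resting wild type, and from 142 to 2476 in contracted knockout against 161 to 526 in contracted wild type.

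Some markers of fibroblasts and of the endothelium were called between the genotypes too. Of 9 measured fibroblast genes 1, Lum, a matrix proteoglycan, rose by 1.12 after contraction (limma adjusted p = 0.0242), where 4.54% of all genes were called higher. On average 4 of the 9 were called higher and 0 lower, beside 12.9% and 13.9% of all genes: Lum by 1.01 (adjusted p = 0.00159), Mfap5 by 0.48 (0.00773), Pdgfra by 0.43 (0.0112) and Col3a1 by 0.19 (0.0425). With the random block Lum, Mfap5 and Pdgfra stayed under the threshold and Col3a1 did not (adjusted p = 0.154), where 7.72% of all genes were called higher. The summed intensity of the 9 ranged from 10841 to 23325 in resting knockout against 9588 to 20838 in resting wild type, and from 12554 to 20149 in contracted knockout against 9062 to 19729 in contracted wild type. Of 10 measured endothelial genes 0 were called higher and 3 lower on average: Vwf fell by 0.69 (adjusted p = 0.0114), Flt1 by 0.35 (0.0157) and Kdr by 0.22 (0.0463). Of these, Vwf alone stayed called with the random block (adjusted p = 0.0243), where 8.05% of all genes were called lower. Their summed intensity ranged from 2694 to 6863 in resting knockout against 5266 to 7090 in resting wild type, and from 3298 to 7623 in contracted knockout against 4986 to 6744 in contracted wild type. The groups overlapped in both lists. The part of these other cell types in the differences of Lgals3, Lgmn and Mrc1 was not tested.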

How the data were processed

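The values used are those the authors deposited for 28 arrays and 25697 probes: linear probe intensities from -36.1 to 50215, with 27.2% below 0 and nearly equal quantiles in every column. Per the submitters' processing notes R 3.1.2, lumi 3.0 and limma 3.1 were used, with no role stated. A second deposited table holds non-normalized intensities with detection p-values of each probe (per the file headers). Its first 7 columns match resting wild-type samples and gave detection, and the other 21 intensity columns were not used. Intensities were corrected with normexp (offset 50) and log2-transformed, so differences of dim probes are understated, and quantile normalization would hide a shift of most genes.

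Genes were tested with limma 3.58.1 in R 4.3.3 (lmFit, eBayes, a mean for each of 4 groups, Benjamini-Hochberg over 8389 genes), except where an exact permutation test over samples is named. Differences are on the log2 scale with limma's SE. The procedure was tested on simulated data. Samples with lymphocyte, adipocyte or slow-fibre marker means more than 3 median absolute deviations from the median were left out as alternatives. All members are accounted for, with full values for those called in a comparison and for up to 3 with the smallest p. The members, gene lists and comparisons were chosen with earlier results of these data known. The numbers 1 to 7 pair knockout samples by the correlation of their deviations across genes (7 of 7 over 0.1), not by a label. In wild type 5 of 7 were over 0.1, and across genotypes 4 of 7 at rest and 3 of 7 after contraction.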

Additional observations from a re-analysis of the deposited data

Results flagged for a closer look

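In 13 of 92 groups of 7 samples, 1 gene's highest or lowest sample lay far from the others by Dixon's test at the 95% level, which chance gives in about 1 of 20 groups. Fcer1g was high in knockout sample 6 both at rest (8.21, next sample 6.19) and after contraction (8.54, next sample 6.27). Lgmn was low in knockout sample 7 both at rest (9.43, next sample 10.41) and after contraction (9.60, next sample 10.44).

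Contracted knockout sample 5 stood high for H2-Ab1 (12.82) and Laptm5 (12.35). Contracted wild-type sample 7 stood high for H2-Ab1 (12.72), Cd74 (13.40), Laptm5 (12.73) and Cd52 (11.16). Both samples are among the 9 high in lymphocyte markers. Resting wild-type sample 5, also among the 9, stood high for H2-Eb1 (9.53), and resting knockout sample 4, also among them, for Cd86 (8.36). Pf4 was high in resting knockout sample 5 (7.68), which is not among the 9.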

How the results depend on the processing

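No gene called between the genotypes changed direction under the alternatives run. Of the 23 genes, 2 were called between knockout and wild type at rest, 3 after contraction and 10 on average. The share of all genes called under the same fit stands in brackets. At rest the count was 1 with no filter on dim probes (1.25%), 0 without the samples high in lymphocyte markers (0.405%) and 1 without the 3 samples low in slow-fibre markers (2.78%). Leaving out 1 array gave 0 to 2 (1.3% to 8.06%), with 0 without resting knockout sample 1 or 6, and leaving out both knockout samples of 1 number, an alternative chosen after seeing the data, gave 0 to 5 (1.29% to 12%). After contraction the count was 9 with array weights (31.2%) and 6 with the replicate number as a fixed block (15.4%), although no label says that numbers pair samples across genotypes. It was 2 to 6 without 1 array (4.88% to 20.3%), with 6 without knockout sample 7 (20.3%) or wild-type sample 7 (10.3%) and 5 without wild-type sample 4 (10.1%), and also 2 to 6 without both knockout samples of 1 number (5.05% to 21.1%). On average it was 6 without the samples low in slow-fibre markers (23.8%) and 8 to 13 without 1 array (22% to 35%). The cause of these moves was not tested. Lgals3 after contraction held in 48 of 48 alternatives, and Lgals3, Lgmn and Fcgr2b on average in 47 of 47. Lgmn held in 47 of 48 after contraction and in 32 of 48 at rest, Mrc1 after contraction in 35 of 48, and C1qb on average in 19 of 47. Contraction called 0 of the 23 genes in either genotype, and its difference 0, under all alternatives run, the replicate block included. Dim probes limit what can be said of the 9 untested genes and of Fcer1g, Tyrobp, H2-Eb1, Cd163, Aif1 and Pf4.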
